A study of Homo sapiens with 18 samples.

Results

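Histone genes were described here in 2 human keratinocyte lines after a scratch wound: every protein-coding gene whose symbol begins with HIST1H to HIST4H, H1F, H2AF, H2BF or H3F in the deposited count table. This rule took 91 of 58735 genes, 71 with the HIST prefix (the replication-dependent genes) and 20 with the other prefixes (the replacement genes), under the older symbols that the files use. The lines were HaCaT, an immortal keratinocyte line from human skin, and TIGK, a line of keratinocytes from the gingiva (the gum) immortalised with telomerase. Both were sequenced without a scratch (0 h) and when 6 h or 24 h had passed since it, in 6 groups of 3 libraries, and the study asked how oral and skin keratinocytes differ in their expression, given that oral ones heal better. Each tissue was represented by 1 line, so that a difference between skin and gingiva and a difference between these lines cannot be told apart. No unscratched culture of 6 h or 24 h was analysed here, so the scratch and the hours in culture cannot be told apart either.

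Nucleosomes are spools of DNA around a core of the histones H2A, H2B, H3 and H4, with a linker histone H1 where the DNA enters and leaves. The replication-dependent genes lie in clusters and supply the bulk of the histones during S phase, when the DNA is copied; their messenger RNAs usually end in a short stem-loop in place of a poly(A) tail, and the stem-loop binding protein SLBP acts on it. Replacement histones such as H1.0, H2A.Z and H3.3 come from genes elsewhere whose messenger RNAs carry a poly(A) tail and are made outside S phase too. H1.0 is known for its rise in cells that stop dividing or differentiate.

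The libraries held 14238090 to 25011331 counted reads. KRT5 and KRT14, keratins of basal keratinocytes, stood at 17116 to 23991 and 7003 to 14310 CPM (the read count scaled to library size) over the 18 libraries, and TP63, the transcription factor of stratified epithelia, at 219 to 446 CPM. The summed level of 6 fibroblast markers was 236 to 435 CPM in TIGK and 21.0 to 40.7 CPM in HaCaT. In TIGK it stood at 236 to 274 CPM at 0 h, 240 to 289 CPM at 6 h and 391 to 435 CPM at 24 h. The HaCaT sum was highest at 24 h too, at 37.7 to 40.7 CPM. COL1A2 was at 0 in all libraries of 4 of the 6 groups, and LUM in those of HaCaT at 6 h. The other markers were at 0 throughout no group. The part of this fibroblast marker level, and of its rise by 24 h, in the histone results was not tested. The TIGK libraries 0 h C and 6 h C (the letter is that of the file column) stood apart: they listed 26246 and 25161 genes with a count, against 21164 to 22799 in the other 16, and 16 listed RNAs that carry no poly(A) tail summed to 80.4 and 174 CPM there, against 1.47 to 6.47 CPM elsewhere. Their summed replication-dependent histone levels, 85.1 and 91.6 CPM, lay beside the 86.5 to 102 CPM of the other 4 TIGK libraries of those times. Their summed replacement levels, 1553 and 1599 CPM, were the lowest of all 18 libraries and below the 1721 to 1800 CPM of those 4. H2AFX (268 and 257 against 347 to 406 CPM) and H3F3A (147 and 151 against 177 to 199.6 CPM) lay lower in them too.

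Of the 71 replication-dependent genes, 64 had a count in some library, 7 had none and 29 had enough counts to be tested. Of the 20 replacement genes, 15 had a count, 5 had none and 10 were tested. The 42 untested replication-dependent genes reached at most 1.36 CPM in any library (HIST2H3D) and the 10 untested replacement genes at most 0.764 CPM (H2BFS). The tested set therefore holds the genes that reached a sufficient level in at least 1 group, and its counts describe those genes only. By class, 2 of 6 replication-dependent H1 genes were tested, 6 of 17 H2A, 11 of 18 H2B, 4 of 15 H3 and 6 of 15 H4. By cluster, 21 of the 55 genes of HIST1 (chr 6, 25726132 to 27893843, hg38) were tested, 5 of the 12 of HIST2 and 2 of the 3 of HIST3 (both on chr 1) and the 1 gene of HIST4 (chr 12). The replacement genes carried most of the histone reads. H2AFX, the H2A.X gene, H2AFZ, the H2A.Z gene, and H1FX, a linker histone gene, had mean levels of 240.2, 96.3 and 94.1 FPKM (the deposited level scaled by gene length and depth) over the 18 libraries. Among replication-dependent genes the highest per length were HIST1H2BK at 75.9 FPKM and HIST1H1C at 23.4 FPKM, and the other 27 tested reached at most 11.4 FPKM (HIST3H2A).

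As annotated, the transcript 3' ends differed between the replication-dependent genes that were tested and those that were not. In GENCODE release 29, whose gene coordinates equal those of the files for all 91 genes, 23 of the 71 had an annotated transcript running at least 100 bases past a stem-loop, 9 ended near it and 39 had no stem-loop inside an annotated transcript. In that order 19, 3 and 7 of them were tested, their median levels were 1.53, 0.154 and 0.0532 CPM, and they held 55.99%, 8.57% and 35.44% of the summed replication-dependent level. The median gene length moved with the level, at 1929, 503 and 393 bases, and per length the median levels were 0.859, 0.269 and 0.168 FPKM. The part of length and annotation in the gap was not tested. Genes without an annotated stem-loop include short annotations, such as 312 bases in HIST1H4A, 381 in HIST1H2BB and 411 in HIST1H3A, which may stop before a stem-loop. This class therefore does not show that its genes lack one. The threshold of 100 bases was chosen after the data were seen. Genes that run past the stem-loop and genes that end near it were split by the annotated length after it, not by its letters. The stem-loop is printed in capitals with 5 bases on each side, from the GENCODE 29 transcript sequences (5′ to 3′, T for U).
HIST2H2BE: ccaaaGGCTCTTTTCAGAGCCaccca
HIST1H2AC: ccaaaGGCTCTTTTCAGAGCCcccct
HIST1H2BG: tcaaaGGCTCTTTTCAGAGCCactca
HIST1H3E: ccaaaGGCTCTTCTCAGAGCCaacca
HIST1H4I: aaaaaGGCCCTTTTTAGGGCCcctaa
HIST1H2BD: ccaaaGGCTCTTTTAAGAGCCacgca
H2AFX: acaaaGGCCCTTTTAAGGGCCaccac
In each of these 7 genes the letters on the left of the loop can pair with those on the right. The longest annotated transcript ran on for 1729 bases after the stem-loop in HIST2H2BE, 1128 in HIST1H2AC, 1059 in HIST1H2BG, 1862 in HIST1H3E and 212 in HIST1H4I. HIST1H2BD has a transcript of 496 bases that ends 39 bases after the stem-loop and a longer one of 789 bases that holds none. H2AFX, a replacement gene that has the stem-loop too, ran on for 1044 bases. HIST1H2BK and HIST1H1C, the replication-dependent genes with the highest FPKM, are annotated as 381 and 642 bases with no stem-loop inside.

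**Figure D1:**
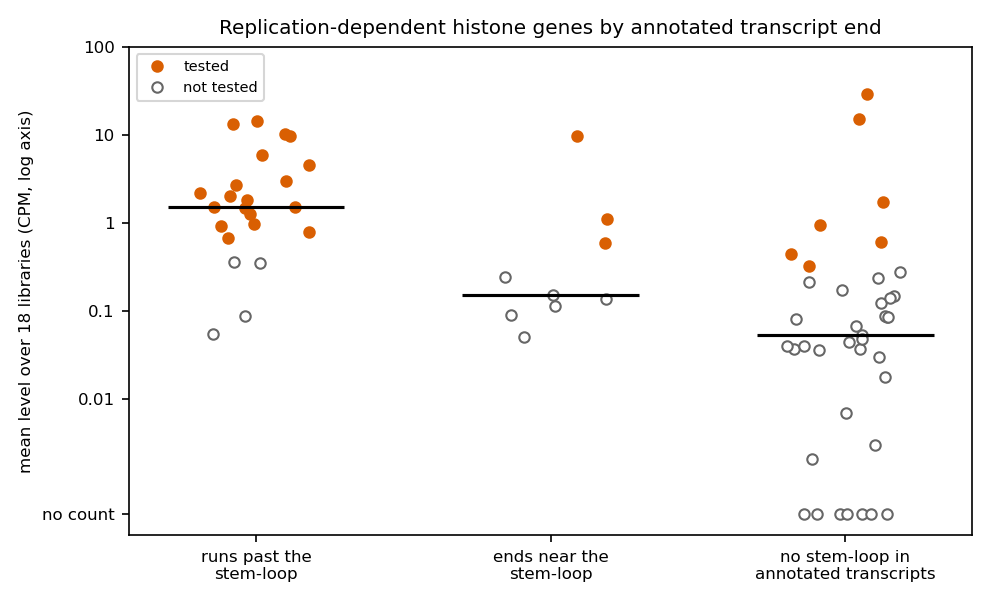
Mean level over the 18 libraries (CPM, log axis) of the 71 replication-dependent histone genes, grouped by how their annotated transcripts end relative to the stem-loop; each point is a gene, filled where it was tested, and the line is the group's median. The 23 genes with a transcript running past the stem-loop centre on 1.53 CPM and the 39 without an annotated stem-loop on 0.0532 CPM.

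The summed level of the replication-dependent genes was low in TIGK until 24 h and reached the HaCaT range then. In TIGK the 3 libraries stood at 97.5, 86.5 and 85.1 CPM at 0 h, at 93.5, 102 and 91.6 CPM at 6 h, and at 158, 165 and 191 CPM at 24 h. In HaCaT they stood at 161, 192 and 158 CPM at 0 h, 163, 164 and 194 CPM at 6 h, and 151, 152 and 172 CPM at 24 h. The 6 TIGK libraries of 0 h and 6 h all lay below the other 12, which overlapped each other. The replacement genes summed to 1691 ± 126, 1697 ± 87.8 and 2254 ± 166 CPM in TIGK and to 1908 ± 107, 1974 ± 78.6 and 2318 ± 47.9 CPM in HaCaT at 0 h, 6 h and 24 h (SD, n = 3). The replication-dependent sum was thus 5.31%, 5.65% and 7.60% of the replacement sum in TIGK and 8.95%, 8.80% and 6.84% in HaCaT. In bulk RNA, fewer cells making these transcripts and less transcript per cell cannot be told apart.

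**Figure D2:**
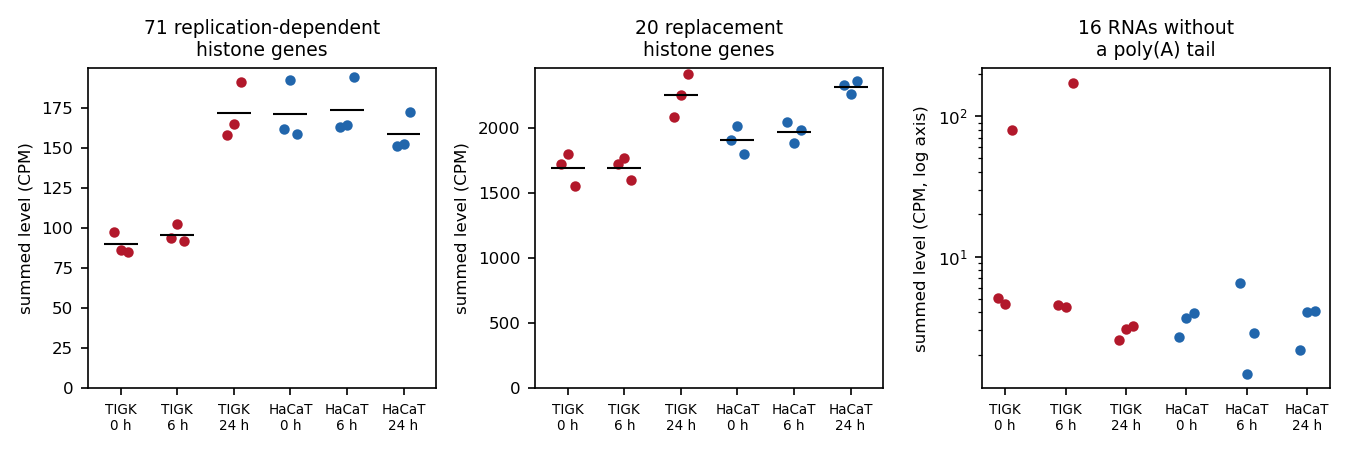
Summed level in each library (CPM; points, red for TIGK and blue for HaCaT; lines are group means) of the replication-dependent and the replacement histone genes, with the sum of 16 RNAs without a poly(A) tail on a log axis. The replication-dependent sums of TIGK at 0 h and 6 h, from 85.1 to 102 CPM, lie below all others, and the letter C libraries of those groups stand out at 80.4 and 174 CPM in the right panel and are the lowest in the middle panel, at 1553 and 1599 CPM.

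Before the scratch, replication-dependent genes were higher in HaCaT wherever the difference passed the test. Of the 29 tested, 19 were higher and 0 lower at 0 h, where edgeR called 29.3% of all genes higher and 33.3% lower (false discovery rate under 0.05), and all 29 had a positive log2 ratio, with a median of 1.14 against -0.04 over all genes. At 6 h 17 were higher and 0 lower (all genes 29.8% higher, 32.8% lower), with a median of 0.95. At 24 h the genes went both ways, 6 higher and 7 lower (all genes 28.6% and 33.1%), with a median of 0.31. Of the 10 replacement genes, 6 were higher and 2 lower at 0 h, 6 and 1 at 6 h, and 6 and 3 at 24 h.

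In time, the changes that passed came at 24 h. No tested histone gene was called at 6 h in either line, where edgeR called 0.138% of all genes higher and 0.0632% lower in HaCaT and 2.5% higher and 1.12% lower in TIGK. DESeq2 called 0 of either kind in both lines. At an unadjusted p under 0.05 with edgeR, 1 of 29 replication-dependent and 0 of 10 replacement genes passed in each line. The share of all genes at that cut is not given here, so this count is no result about the histone genes. By 24 h 14 of the 29 replication-dependent genes were called higher in TIGK and 0 lower (all genes 15.3% higher, 17% lower). The 29 had a median log2 change of 1.12. In HaCaT 2 had risen and 2 had fallen (all genes 15.5% higher, 15.9% lower), with a median of -0.02. The replacement genes rose for 7 and fell for 1 of 10 in TIGK and rose for 3 and fell for 1 in HaCaT. The line difference in the 24 h response is the HaCaT change minus the TIGK change. It was called negative for 11 of 29 replication-dependent genes and positive for 0 (all genes 6.46% negative, 7.07% positive). By sign alone it was negative for 24 and positive for 5, with a median of -1.15. For replacement genes it was called negative for 2 and positive for 1 of 10, and by sign alone it was negative for 7 and positive for 3. At 6 h no histone gene was called for a line difference in its response by edgeR (all genes 0.534% negative, 0.218% positive) or by DESeq2. At an unadjusted p under 0.05 with edgeR, 1 replication-dependent and 0 replacement genes passed, again with no share of all genes beside them.

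**Figure D3:**
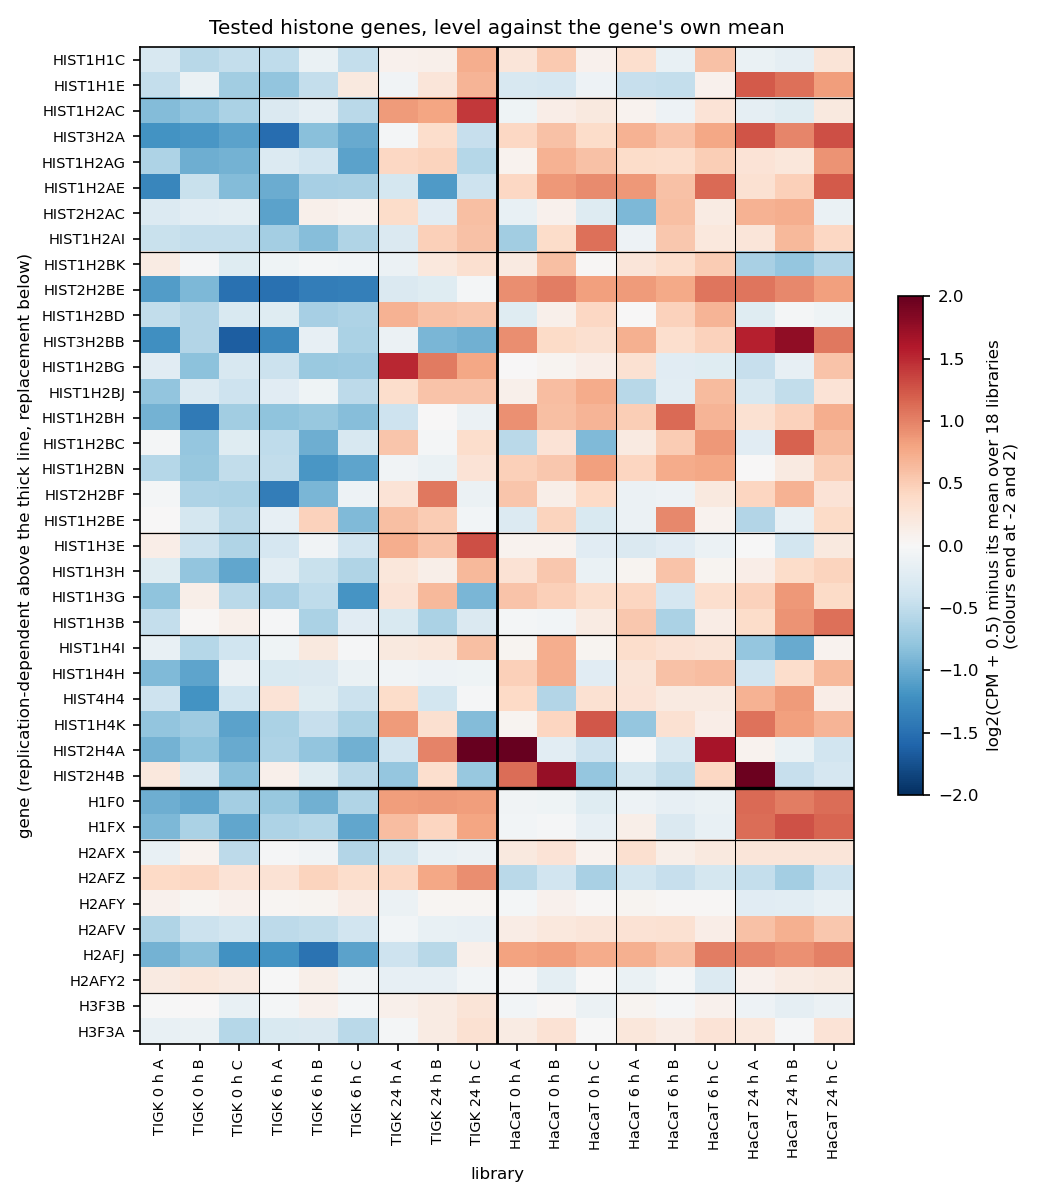
Level of the 39 tested histone genes in the 18 libraries, as log2(CPM + 0.5) minus the gene's mean over the libraries (red above, blue below, colours ending at 2 and -2), with replication-dependent genes above the thick line, grouped by class, and replacement genes below. Most replication-dependent genes are blue in the 6 TIGK libraries of 0 h and 6 h and lighter or red in TIGK at 24 h, while H2AFZ shows the opposite colours between the lines and HIST2H4A and HIST2H4B vary inside groups.

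**Figure D4:**
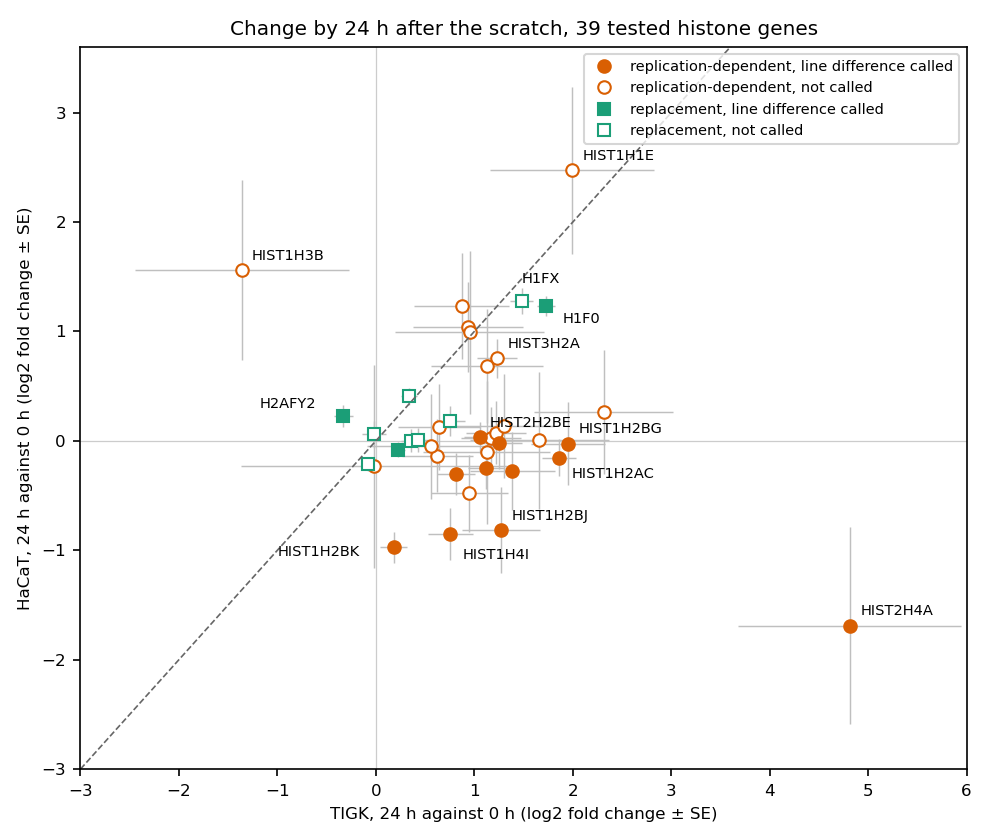
Log2 fold change from 0 h to 24 h in TIGK (horizontal) and HaCaT (vertical) for the 39 tested histone genes, with SE bars; filled symbols mark genes whose change differed between the lines by edgeR, and the dashed line marks equal change. The 11 filled replication-dependent genes all lie below the dashed line. H1F0 and H1FX rose in both lines and lie below it too, H1F0 with a line difference that was called and H1FX with one that was not.

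The linker histone genes H1F0 and H1FX showed the largest changes in time among the replacement genes, in both lines. H1F0 (H1.0; chr 22, 37805093 to 37807436) stood at 92.3, 88.2 and 113 CPM in TIGK at 0 h, at 107, 92.9 and 119.7 at 6 h and at 324, 329 and 323 at 24 h. In HaCaT it stood at 173, 169.8 and 152 CPM, at 168, 162 and 165 CPM, and at 399, 369 and 394 CPM. Every 24 h library lay above all earlier ones of either line, while 0 h and 6 h overlapped within each line. The rise was 3.32-fold in TIGK (log2 1.73, SE 0.09, adjusted p = 1.8e-12) and 2.35-fold in HaCaT (log2 1.23, SE 0.09, adjusted p = 1.5e-10), and it was smaller in HaCaT by 0.50 log2 units (log2 difference -0.50, SE 0.13, adjusted p = 0.0088). Between the lines it was 1.68-fold, 1.55-fold and 1.19-fold higher in HaCaT at 0 h, 6 h and 24 h (adjusted p = 1.1e-07, 1.5e-06 and 0.017), and the last call is lost without HaCaT 24 h A (adjusted p = 0.059).

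H1FX (H1.10; chr 3, 129314771 to 129316277) stood at 67.0, 80.4 and 60.6 CPM in TIGK at 0 h and 193, 169 and 217 CPM at 24 h. The HaCaT levels were 120.3, 123 and 112 CPM and then 273, 304 and 282 CPM. It rose 2.79-fold in TIGK (log2 1.48, SE 0.12, adjusted p = 1.4e-09) and 2.42-fold in HaCaT (log2 1.28, SE 0.12, adjusted p = 9.4e-09). The 24 h libraries lay above the 0 h libraries without overlap in both lines, and the difference of the responses did not pass (log2 -0.20, SE 0.17, adjusted p = 0.48). HaCaT was higher by 1.71-fold at 0 h, 1.56-fold at 6 h and 1.48-fold at 24 h (adjusted p = 5e-06, 6.2e-05 and 0.00018).

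The replication-dependent linker genes were lower and less alike. HIST1H1C (H1.2; chr 6, 26055787 to 26056428) stood at 11.6, 9.80 and 10.4 CPM in TIGK at 0 h and 15.6, 15.8 and 24.6 CPM at 24 h, a rise of 1.76-fold (log2 0.81, SE 0.20, adjusted p = 0.0022). In HaCaT it stood at 17.4, 21.3 and 15.6 CPM at 0 h and 13.3, 12.9 and 17.7 CPM at 24 h, which overlap (log2 -0.31, SE 0.19, adjusted p = 0.25), and the responses differed (log2 -1.12, SE 0.27, adjusted p = 0.0067). It was 1.71-fold higher in HaCaT at 0 h and 1.59-fold at 6 h (adjusted p = 0.0013 and 0.0045) and did not pass at 24 h (adjusted p = 0.13; 0.05 without HaCaT 24 h C). HIST1H1E (H1.4) rose in HaCaT from 0.192, 0.186 and 0.312 CPM to 1.52, 1.36 and 1.04 CPM (log2 2.47, SE 0.76, adjusted p = 0.015), a call lost without HaCaT 0 h A or B or 24 h A (adjusted p = 0.062, 0.062 and 0.051). These were 3, 3 and 5 reads and then 24, 20 and 16. Outside HaCaT at 24 h only TIGK 24 h C, with 13, held more than 9 reads. HIST1H1E was thus tested through the group in which it rose, which limits what this call shows. In TIGK its libraries went from 0.123, 0.288 and 0.0378 CPM to 0.327, 0.522 and 0.888 CPM (adjusted p = 0.072; 0.047 without TIGK 0 h B).

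**Figure D5:**
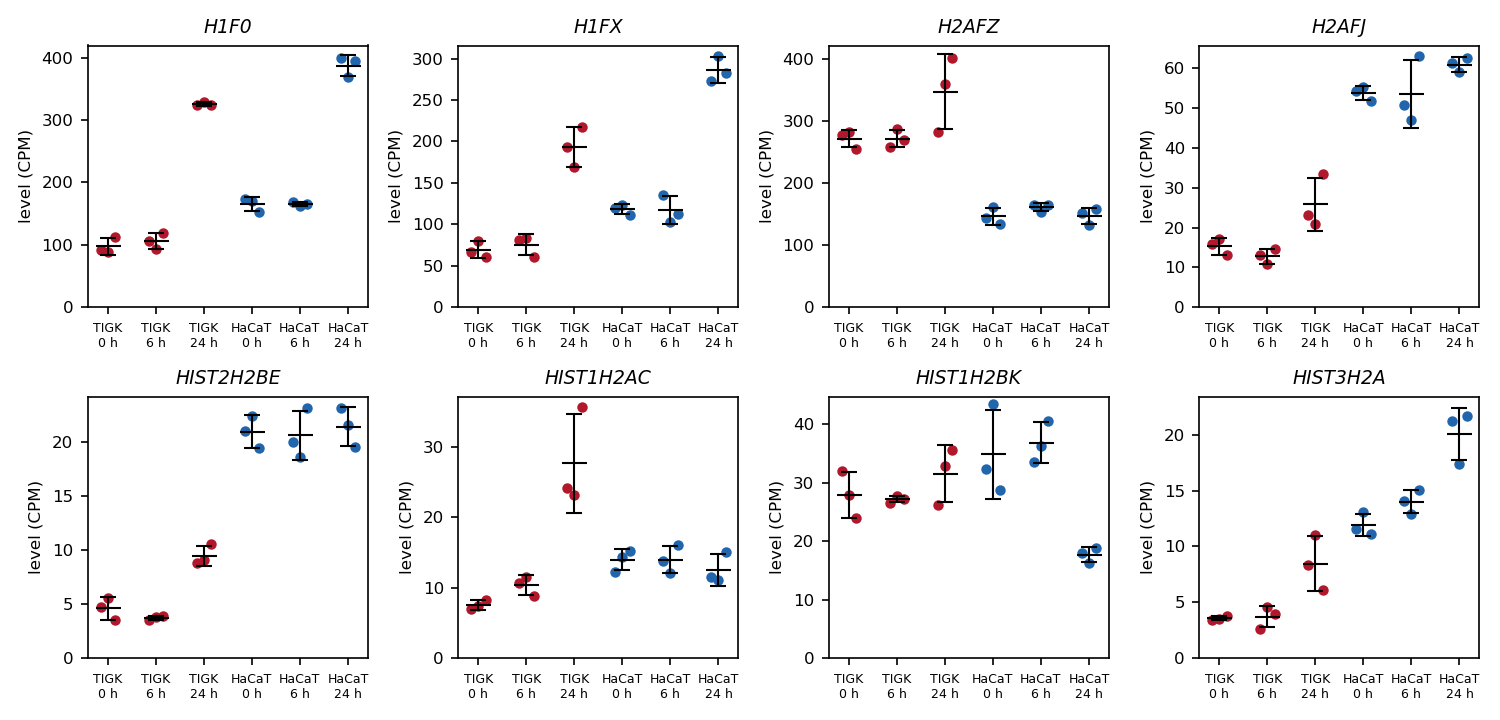
Level in each library (CPM, linear axes from 0; points, red for TIGK and blue for HaCaT; bars are mean ± SD, n = 3) of 4 replacement and 4 replication-dependent histone genes by line and time. H1F0 and H1FX rise at 24 h in both lines, HIST1H2AC rises to 24.1, 23.1 and 35.7 CPM in TIGK, and HIST1H2BK falls to 17.96, 16.3 and 18.8 CPM in HaCaT.

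Among the H2A genes of the clusters, HIST1H2AC changed most between the lines over time. HIST1H2AC (chr 6, HIST1) stood at 6.998, 7.43 and 8.31 CPM in TIGK at 0 h, 10.6, 11.6 and 8.84 CPM at 6 h and 24.1, 23.1 and 35.7 CPM at 24 h. In HaCaT it stood at 12.3, 14.4 and 15.1, at 13.8, 12.1 and 16.1, and at 11.5, 11.0 and 15.1 CPM. TIGK was thus below HaCaT at 0 h and above it at 24 h, with no overlap at either time. The TIGK libraries of 6 h also lay above those of 0 h, a change that was not called. The rise in TIGK was 3.62-fold (log2 1.86, SE 0.17, adjusted p = 1.2e-08), the HaCaT change did not pass (log2 -0.15, SE 0.17, adjusted p = 0.55), and the responses differed by -2.01 log2 units (SE 0.24, adjusted p = 2.9e-06). HaCaT was 1.83-fold higher at 0 h (adjusted p = 0.00014) and 2.20-fold lower at 24 h (adjusted p = 2.8e-06). At 6 h it was 1.35-fold higher (adjusted p = 0.033), a call lost without TIGK 6 h A or C or HaCaT 6 h A or C (adjusted p = 0.052, 0.14, 0.055 and 0.15).

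HIST3H2A (HIST3 cluster, chr 1) rose in both lines. It stood at 3.44, 3.52 and 3.82 CPM in TIGK at 0 h and 8.31, 11.0 and 6.08 CPM at 24 h. The HaCaT libraries stood at 11.5, 13.0 and 11.2 CPM and at 21.2, 17.4 and 21.6 CPM. The rise was 2.35-fold in TIGK (log2 1.23, SE 0.20, adjusted p = 4e-05) and 1.69-fold in HaCaT (log2 0.75, SE 0.18, adjusted p = 0.0021), and the difference did not pass (adjusted p = 0.27). Every HaCaT library lay above every TIGK library of its time, by 3.30-fold, 3.73-fold and 2.37-fold at 0 h, 6 h and 24 h (adjusted p = 4.7e-08, 1e-08 and 2.6e-06). HIST1H2AE was also higher in HaCaT at each time, with 1.86 ± 0.448 against 0.282 ± 0.229 CPM at 0 h (6.42-fold, adjusted p = 0.00023; 6.26-fold at 6 h and 4.20-fold at 24 h). The TIGK libraries held 1 to 9 reads of HIST1H2AE and the HaCaT libraries 19 to 42. It was thus tested only through the line in which it is high, which limits what these calls show. HIST1H2AI, with 62.3% of its 50-base stretches shared with other genes, was higher in HaCaT at 6 h, at 0.697 ± 0.267 against 0.12 ± 0.0518 CPM (5.48-fold, adjusted p = 0.01). Its reads there were 7, 16 and 11 against 2, 1 and 3.

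The replacement H2A genes split between the lines. H2AFZ, which encodes H2A.Z, a variant placed at gene starts by dedicated remodelling complexes, stood at 278, 282 and 256 CPM in TIGK and 144, 162 and 134 CPM in HaCaT at 0 h. At 24 h it stood at 282, 359 and 401 CPM in TIGK and 151, 132 and 158 CPM in HaCaT. All TIGK libraries lay above all HaCaT libraries, and HaCaT was lower 1.85-fold, 1.69-fold and 2.36-fold at 0 h, 6 h and 24 h (adjusted p = 3.4e-08, 4.8e-07 and 1.1e-10). H2AFZ rose 1.28-fold in TIGK (log2 0.35, SE 0.10, adjusted p = 0.0075), where the lowest 24 h library equalled the highest 0 h library to 3 digits, and the call is lost without TIGK 24 h C (adjusted p = 0.07). The difference of its responses did not pass (log2 -0.35, SE 0.14, adjusted p = 0.11) but passed without TIGK 24 h A (0.0095). Its close relative H2AFV, which encodes the second H2A.Z protein, went the other way between lines: it was 1.59-fold, 1.63-fold and 1.67-fold higher in HaCaT (adjusted p = 7.2e-08, 2.8e-08 and 1.3e-08). H2AFV rose in both lines by 24 h, from 70.96 ± 5.79 to 89.8 ± 3.79 CPM in TIGK and from 113 ± 3.53 to 149.7 ± 9.03 CPM in HaCaT (adjusted p = 0.0017 and 0.00021).

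H2AFJ, which encodes H2A.J, a variant known to accumulate in senescent cells, showed the largest line difference of the replacement genes at 0 h and 6 h. It stood at 15.8, 17.2 and 13.0 CPM in TIGK and 54.3, 55.3 and 51.8 CPM in HaCaT at 0 h, 3.52-fold higher (log2 1.82, SE 0.15, adjusted p = 8.6e-11), and 4.16-fold and 2.36-fold higher at 6 h and 24 h (adjusted p = 1.4e-11 and 4.6e-08). By 24 h it reached 23.1, 21.0 and 33.3 CPM in TIGK, 1.69-fold up (adjusted p = 0.00032). In HaCaT it reached 61.3, 58.9 and 62.6 CPM (adjusted p = 0.35). The difference of the 24 h responses did not pass (log2 -0.58, SE 0.20, adjusted p = 0.059). It passed with DESeq2 (adjusted p = 0.045), with no filter on low counts (0.019), with only the groups compared (0.047) and without TIGK 0 h B, 24 h A or 24 h B (0.044, 0.043 and 0.022).

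The other replacement H2A genes differed less. H2AFX, the H2A.X gene whose protein is phosphorylated at DNA breaks, was 1.29-fold, 1.34-fold and 1.36-fold higher in HaCaT at 0 h, 6 h and 24 h (adjusted p = 0.014, 0.0053 and 0.0035). Its TIGK libraries at 0 h stood at 347, 406 and 268 CPM and its HaCaT libraries at 442, 467 and 404, which overlap, and the 0 h call is lost without TIGK 0 h C or HaCaT 0 h B (adjusted p = 0.12 and 0.058). No change of H2AFX in time passed (TIGK 24 h against 0 h, adjusted p = 0.93; HaCaT, adjusted p = 0.76, both with edgeR). H2AFY, the macroH2A gene of repressed chromatin, fell 1.16-fold in HaCaT by 24 h, from 205 ± 8.87 to 177 ± 5.34 CPM (adjusted p = 0.017), a call lost with no low-count filter (0.062) and without HaCaT 0 h B, 24 h A or 24 h B (0.084, 0.071 and 0.051). It was 1.13-fold lower in HaCaT at 24 h (adjusted p = 0.021), a call lost without TIGK 24 h B or C or HaCaT 24 h A or B (0.069, 0.07, 0.076 and 0.055), with no low-count filter (0.15) and with only the groups compared (0.12).

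The second macroH2A gene, H2AFY2, fell in TIGK, and its response differed between the lines. It stood at 29.2, 30.3 and 29.1 CPM in TIGK at 0 h and 22.8, 22.8 and 24.7 CPM at 24 h, a fall of 1.26-fold (adjusted p = 0.011). HaCaT had 25.2, 22.4 and 25.5 CPM at 0 h and 27.4, 28.8 and 29.5 CPM at 24 h (log2 0.23, SE 0.10, adjusted p = 0.083; 0.05 with DESeq2). The difference was the only positive one called among the 39 tested histone genes (log2 0.56, SE 0.14, adjusted p = 0.0075). HaCaT was 1.21-fold lower at 0 h (adjusted p = 0.017) and 1.22-fold higher at 24 h (adjusted p = 0.016). Each of these calls is lost with no low-count filter (0.079 and 0.061), the first without HaCaT 0 h B (0.092) and the other without TIGK 24 h A or B or HaCaT 24 h C (0.054, 0.054 and 0.055). The fall in TIGK is lost with only the groups compared (0.052). H2AFY2 and H3F3B overlap protein-coding genes on the other strand, AIFM2 with 8759 counts in all and UNK with 9983. H2AFY, H2AFZ, H1FX and H3F3A overlap antisense genes of at most 672 counts in all. Reads of such pairs cannot be told apart where strand was not used, and its use is not given in the sources used here.

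H2B was the class with the most tested replication-dependent genes, and HIST2H2BE, HIST1H2BK and HIST1H2BG stood for its range of patterns. HIST2H2BE (HIST2 cluster, chr 1) stood at 4.73, 5.59 and 3.51 CPM in TIGK at 0 h, 3.52, 3.82 and 3.87 CPM at 6 h and 8.77, 9.07 and 10.5 CPM at 24 h. In HaCaT it stood at 21.0, 22.4 and 19.4, at 19.98, 18.6 and 23.1, and at 23.1, 21.5 and 19.5 CPM. All 9 HaCaT libraries lay above all 9 TIGK libraries, by 4.59-fold, 5.49-fold and 2.26-fold at 0 h, 6 h and 24 h (adjusted p = 9.4e-12, 2.4e-12 and 2.3e-07). TIGK rose 2.08-fold by 24 h (log2 1.05, SE 0.16, adjusted p = 1.8e-05), HaCaT did not pass (log2 0.03, SE 0.14, adjusted p = 0.91), and the responses differed (log2 -1.02, SE 0.22, adjusted p = 0.0019).

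HIST1H2BK, the replication-dependent gene with the highest FPKM, fell in HaCaT. It stood at 32.3, 43.4 and 28.8 CPM at 0 h, 33.6, 36.3 and 40.5 CPM at 6 h and 17.96, 16.3 and 18.8 CPM at 24 h, 1.96-fold down by 24 h with no overlap (log2 -0.97, SE 0.14, adjusted p = 8.4e-06). In TIGK it stood at 31.9, 27.8 and 23.9 CPM, at 26.6, 27.7 and 27.2 CPM and at 26.2, 32.8 and 35.6 CPM, with no change that passed (24 h, adjusted p = 0.34). The responses differed (log2 -1.16, SE 0.20, adjusted p = 0.00022). HaCaT was 1.78-fold lower than TIGK at 24 h (adjusted p = 2e-05). At 0 h it was 1.25-fold higher (adjusted p = 0.043) with overlapping libraries, and this call is lost with the replicate block by letter (0.052) and without TIGK 0 h B, TIGK 0 h C or HaCaT 0 h B (0.082, 0.21 and 0.42). Of its 50-base stretches 74.1% occur in other annotated genes as well, so its counts may hold reads of its copies.

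HIST1H2BG, HIST1H2BJ, HIST1H2BD and HIST1H2BH rose in TIGK and had no change that passed in HaCaT, and the line difference passed for each. HIST1H2BG stood at 1.29, 0.692 and 1.17 CPM in TIGK at 0 h and 5.43, 3.78 and 3.07 CPM at 24 h, 3.86-fold up (adjusted p = 0.00024), and at 1.69 ± 0.105 and 1.66 ± 0.837 CPM in HaCaT (difference log2 -1.98, SE 0.53, adjusted p = 0.013). HIST1H2BJ went from 0.737, 1.27 and 1.10 CPM to 2.22, 2.67 and 2.66 CPM in TIGK and from 2.54 ± 0.664 to 1.44 ± 0.568 CPM in HaCaT (difference log2 -2.09, SE 0.56, adjusted p = 0.013). HIST1H2BD went from 6.45, 5.99 and 7.41 CPM to 15.3, 14.2 and 13.9 CPM in TIGK, 2.18-fold up (adjusted p = 5.2e-05), and from 10.1 ± 2.39 to 8.51 ± 0.686 CPM in HaCaT (difference log2 -1.37, SE 0.27, adjusted p = 0.00089). In each of these 3 genes the TIGK libraries of 24 h lay above those of 0 h. HIST1H2BH was 5.86-fold, 4.89-fold and 1.85-fold higher in HaCaT at the 3 times (adjusted p = 6.7e-06, 2.7e-05 and 0.045), with 2.49 ± 0.344 against 0.402 ± 0.217 CPM at 0 h, and rose 2.61-fold in TIGK to 1.11 ± 0.232 CPM (adjusted p = 0.015; difference log2 -1.66, SE 0.56, adjusted p = 0.049). Its rise is lost without TIGK 0 h B or 24 h B (0.084 and 0.057), with no low-count filter (0.057) and with only the groups compared (0.062). Its line difference is lost with median-of-ratios size factors (0.051), with no low-count filter (0.15), with only the groups compared (0.077) and with the block by letter (0.062). It is lost too without any single library of the 4 groups except TIGK 0 h C or 24 h A (0.052 to 0.13). Its 24 h call between lines is lost with no low-count filter (0.12), with only the groups compared (0.062) and with the block by letter (0.066). That call is lost too without HaCaT 24 h B or C or any of the TIGK 24 h libraries (0.05 to 0.15). HIST3H2BB, from the HIST3 cluster, was 5.75-fold, 2.90-fold and 6.20-fold higher in HaCaT (adjusted p = 0.00012, 0.0067 and 2.8e-05), at 5.24 ± 1.4 against 0.836 ± 0.466 CPM at 24 h.

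Many H2A and H2B genes lie head to head and share a promoter. Of 12 histone gene pairs that start on opposite strands within 500 bases of each other, 5 had both genes tested, 2 had 1 and 5 had none. Per length, the partners differed: HIST1H2BK had a mean of 75.9 FPKM and HIST1H2AH, 331 bases away, 0.224 FPKM, while HIST2H2BE and HIST2H2AC, 323 bases apart, had 6.05 and 1.54 FPKM. In HIST1H2AC and HIST1H2BC, 219 bases apart, the means were 8.49 and 1.79 FPKM. By 24 h in TIGK, HIST1H2BG rose 3.86-fold while HIST1H2AE, 283 bases away, did not pass (log2 0.56, SE 0.65, adjusted p = 0.56). HIST1H2BJ and HIST1H2AG, 292 bases apart, both rose (2.41-fold and 2.25-fold, adjusted p = 0.016 and 0.0045), and the call of HIST1H2BJ is lost without TIGK 0 h A (0.07). The partners of HIST1H2AC, HIST2H2BE and HIST3H2A had positive changes that did not pass (log2 0.87, 0.95 and 0.94, adjusted p = 0.18, 0.37 and 0.22), though the last, HIST3H2BB, passed without TIGK 0 h B (0.043). Whether the partners' changes differed from each other was not tested.

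The promoters of 3 genes whose TIGK level rose are printed from RefSeq (GRCh38.p14, gene strand, 250 bases before to 50 after the start), with the octamer ATTTGCAT and the TATA box TATAAA in capitals wherever either strand held them.
HIST2H2BE (chr1:149886633-149886932, minus strand): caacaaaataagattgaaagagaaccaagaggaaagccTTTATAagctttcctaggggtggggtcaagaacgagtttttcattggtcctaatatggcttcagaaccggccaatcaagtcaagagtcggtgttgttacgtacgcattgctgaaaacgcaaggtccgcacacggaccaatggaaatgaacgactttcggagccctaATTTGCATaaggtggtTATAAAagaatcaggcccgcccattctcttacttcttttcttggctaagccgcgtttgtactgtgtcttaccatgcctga
HIST1H2BG (chr6:26216639-26216938, minus strand): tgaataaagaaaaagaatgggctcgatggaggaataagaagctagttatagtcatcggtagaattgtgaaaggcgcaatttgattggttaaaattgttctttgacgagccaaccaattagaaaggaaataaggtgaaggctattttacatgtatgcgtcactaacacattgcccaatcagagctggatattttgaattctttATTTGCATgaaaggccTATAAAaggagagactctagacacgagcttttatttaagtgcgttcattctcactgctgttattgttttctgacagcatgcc
HIST1H2AC (chr6:26123922-26124221, plus strand): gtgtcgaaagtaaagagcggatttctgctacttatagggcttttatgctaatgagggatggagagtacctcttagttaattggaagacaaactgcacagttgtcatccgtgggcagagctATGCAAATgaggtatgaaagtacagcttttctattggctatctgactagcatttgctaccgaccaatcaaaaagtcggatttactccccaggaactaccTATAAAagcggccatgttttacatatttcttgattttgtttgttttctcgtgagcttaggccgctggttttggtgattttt
The octamer, a site known to be bound by the factor Oct-1 in H2B promoters, begins at -46 and -48 relative to the starts of HIST2H2BE and HIST1H2BG, and at -130 relative to that of HIST1H2AC, on the other strand and within the stretch it shares with HIST1H2BC. RefSeq promoters were matched for 70 of the 91 genes. The octamer was in 13 of 16 replication-dependent H2B promoters, 11 of 14 H2A and 0 of 8 H3, 13 H4 and 6 H1 promoters. It was in 1 of 13 replacement promoters and in 1.77% of all 35116 RefSeq promoters of this length. TATAAA was in 10 of 16 H2B, 10 of 14 H2A, 7 of 8 H3, 7 of 13 H4 and 3 of 6 H1 promoters. It was in 4 of 13 replacement promoters and in 11.53% of all. The pentamer CCAAT was in all of the H2B, H2A, H3 and H1 promoters of the clusters and in 3 of 13 H4 promoters. It was also in 11 of 13 replacement promoters and in 34.61% of all. These matches were searched on both strands and describe letters, not binding.

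Among the H3 genes of the clusters, HIST1H3E and HIST1H3H rose in TIGK. HIST1H3E stood at 6.20, 4.03 and 3.51 CPM at 0 h and 9.62, 8.55 and 14.3 CPM at 24 h there, 2.39-fold up (adjusted p = 0.00014), and at 5.48 ± 0.697 and 5.40 ± 1.12 CPM in HaCaT (difference log2 -1.27, SE 0.33, adjusted p = 0.0099). HIST1H3H went from 2.33, 1.44 and 1.13 CPM to 3.40, 3.13 and 4.71 CPM in TIGK (2.33-fold, adjusted p = 0.003), but its line difference did not pass (log2 -1.15, SE 0.42, adjusted p = 0.073). It passed without TIGK 0 h A (0.025) or HaCaT 0 h C (0.046). Between lines HIST1H3H was 2.17-fold and 1.73-fold higher in HaCaT at 0 h and 6 h (adjusted p = 0.0026 and 0.025), and the 6 h call is lost without TIGK 6 h B or C or HaCaT 6 h B (0.059, 0.093 and 0.14). HIST1H3B had 0.508, 0.954 and 1.17 CPM in HaCaT and 0.131, 0 and 0.137 CPM in TIGK at 24 h (log2 3.20, SE 0.99, adjusted p = 0.0069). These were 8, 14 and 18 reads against 2, 0 and 2. No TIGK library of any time held more than 9 reads of HIST1H3B. The gene was thus tested only through the line in which it is high, which limits what this call shows.

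H3.3, the replacement H3 deposited outside replication, comes from H3F3A and H3F3B, which differ in sequence but encode the same protein. H3F3A stood at 198, 199.6 and 147 CPM in TIGK and 245, 267 and 219 CPM in HaCaT at 0 h, 1.34-fold higher in HaCaT (adjusted p = 0.0016), and 1.51-fold higher at 6 h (adjusted p = 5.4e-05). By 24 h it reached 213, 247 and 271 CPM in TIGK (1.34-fold up, adjusted p = 0.0041) and 254, 217 and 265 CPM in HaCaT (adjusted p = 0.98), so that the lines overlapped (adjusted p = 0.95). The difference of these responses did not pass (log2 -0.42, SE 0.16, adjusted p = 0.078), but it passed with no low-count filter (0.016) and without TIGK 24 h A (0.033). H3F3B stood at 414, 416 and 376 CPM in TIGK and 400.3, 420.3 and 382 CPM in HaCaT at 0 h (adjusted p = 0.97). By 24 h it reached 446, 464 and 497 CPM in TIGK (1.17-fold up, adjusted p = 0.014) and 387, 367 and 384 CPM in HaCaT (adjusted p = 0.41), with no overlap between the lines (HaCaT 1.24-fold lower, adjusted p = 0.00045). Its response differed (log2 -0.30, SE 0.10, adjusted p = 0.039), and this call is lost without TIGK 0 h C and 6 h C together (0.067), with no low-count filter (0.14), with only the groups compared (0.057), and without TIGK 0 h C, TIGK 24 h B or C, HaCaT 0 h A or B, or any of the HaCaT 24 h libraries (0.053 to 0.11). The TIGK rise is lost without that pair too (0.057), without TIGK 0 h C or 24 h C (0.084 and 0.062), with no low-count filter (0.097) and with only the groups compared (0.074).

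Of the H4 genes, HIST1H4I moved in opposite directions in the lines. It stood at 8.29, 6.11 and 6.88 CPM in TIGK at 0 h and 10.7, 10.9 and 14.3 CPM at 24 h (1.69-fold up, adjusted p = 0.013). In HaCaT it stood at 9.66, 15.6 and 9.66 CPM and at 5.20, 4.36 and 9.78 CPM (1.80-fold down, adjusted p = 0.0068), where the libraries overlapped. The responses differed by -1.61 log2 units (SE 0.33, adjusted p = 0.0014). The TIGK call is lost without TIGK 0 h B or 24 h C (0.061 and 0.071) and the HaCaT call without HaCaT 0 h B or 24 h B (0.081 and 0.056). The HaCaT excess at 0 h (1.64-fold, adjusted p = 0.0086) is lost without HaCaT 0 h B (0.11), and HaCaT was 1.85-fold lower at 24 h (adjusted p = 0.0021).

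HIST2H4A, HIST2H4B and HIST1H4K are uncertain, because other annotated genes hold 97.5%, 97.2% and 100% of their 50-base stretches. HIST2H4A stood at 3.97, 0.433 and 0.312 CPM in HaCaT at 0 h, 0.571, 0.366 and 2.86 CPM at 6 h and 0.635, 0.477 and 0.326 CPM at 24 h. In TIGK it stood at 0.0614, 0.115 and 0.0378 CPM, at 0.199, 0.1252 and 0.0545 CPM and at 0.327, 1.63 and 4.37 CPM. Its near-identical copy HIST2H4B stood at 3.24, 0.204 and 0.261 CPM in HaCaT at 24 h. The sum of the pair ranged from 0.374 to 5.57 CPM within HaCaT at 0 h, from 0.587 to 3.87 CPM at 24 h and from 0.392 to 4.44 CPM within TIGK at 24 h. HIST2H4A had the largest fitted changes of all histone genes, a rise of log2 4.81 in TIGK (SE 1.13, adjusted p = 0.0019) and a line difference of -6.50 (SE 1.46, adjusted p = 0.0033). Between lines it was called higher in HaCaT at 0 h (log2 4.39, SE 1.15, adjusted p = 0.0018) and 6 h (log2 3.29, SE 1.10, adjusted p = 0.012) and lower at 24 h (log2 -2.11, SE 0.89, adjusted p = 0.044), where the libraries overlapped. The 0 h call is lost without HaCaT 0 h A (0.097), the 6 h call without HaCaT 6 h C (0.19), and the 24 h call with DESeq2 (0.08), with the block by letter (0.086) and without TIGK 24 h B or C or any of the HaCaT 24 h libraries (0.054 to 0.39). HIST1H4K was 7.26-fold higher in HaCaT at 0 h (adjusted p = 0.00085) and rose 4.97-fold in TIGK by 24 h (adjusted p = 0.013), a call lost without TIGK 0 h C (0.069) or 24 h A (0.12).

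Genes that serve the histones changed in both directions by 24 h. Of 18 genes of histone gene transcription and of histone mRNA 3' processing, 9 fell and 1 rose in HaCaT by 24 h, and 6 fell and 2 rose in TIGK, where 15.9% and 15.5%, and 17% and 15.3%, of all genes fell and rose. SLBP, the stem-loop binding protein, fell in HaCaT from 74.4 ± 7.01 to 54.6 ± 1.75 CPM and LSM10, a subunit of the U7 particle that cuts histone precursors, from 20.3 ± 4.15 to 10.7 ± 1.31 CPM (adjusted p = 0.0021 and 0.00014). NPAT, the coactivator of histone gene transcription, was the 1 that rose there (adjusted p = 0.012), from 26.3 ± 0.638 to 34.5 ± 1.63 CPM. In TIGK ZNF473, a zinc finger protein of the U7 complex, fell 1.99-fold, from 27.7 ± 1.11 to 13.9 ± 1.25 CPM. Between the lines at 0 h 4 were higher in HaCaT and 5 lower, where 29.3% of all genes were higher and 33.3% lower.

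Histone chaperones, which carry histones to DNA, were lower in HaCaT for 12 of 26 and higher for 4 at 0 h (all genes 33.3% lower, 29.3% higher), with RBBP4 at 86.3 ± 1.88 against 160.4 ± 7.03 CPM and NASP at 98.0 ± 5.53 against 157 ± 22.5 CPM. By 24 h 4 rose and 3 fell in HaCaT (all genes 15.5% and 15.9%), and 2 rose and 5 fell in TIGK (all genes 15.3% and 17%). ASF1B, a chaperone of newly made H3 and H4, rose in HaCaT from 55.1 ± 4.71 to 86.0 ± 7.98 CPM, and CHAF1A, of the replication-coupled assembly factor CAF-1, fell in TIGK from 47.2 ± 2.27 to 32.7 ± 0.916 CPM. The line difference of the 24 h response was called positive for 5 of 26 and negative for 1 (all genes 7.07% and 6.46%).

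S phase genes gave the opposite counts to the replication-dependent histone genes in TIGK. Of 30 such genes 18 fell and 2 rose by 24 h (all genes 17% and 15.3%), with a median log2 change of -0.29, while 14 of the 29 histone genes rose. The replication initiation factor CDC6 fell from 93.7 ± 0.848 to 57.2 ± 4.37 CPM and TK1, thymidine kinase, was among the 2 that rose, from 154 ± 14.2 to 266 ± 22.9 CPM. In HaCaT 10 rose and 5 fell (all genes 15.5% and 15.9%), and among the risers was CDC45, a subunit of the replicative helicase, which rose from 35.6 ± 1.52 to 66.8 ± 1.33 CPM. Between the lines at 0 h 19 of 30 were lower in HaCaT and 6 higher (all genes 33.3% and 29.3%), with MCM5 at 72.5 ± 8.21 against 249 ± 8.48 CPM, where 19 of 29 histone genes were higher. The line difference of the 24 h response was called positive for 11 of 30 S phase genes and negative for 0 (all genes 7.07% and 6.46%). For the 29 replication-dependent histone genes these calls were 0 and 11. Of the 29, 8 are listed as having known polyadenylated transcripts, so their counts are part of those above. At 0 h 7 of the 8 were called higher in HaCaT and 0 lower (all genes 29.3% and 33.3%), and at 24 h 1 and 3 (28.6% and 33.1%). By 24 h 5 rose and 0 fell in TIGK (all genes 15.3% and 17%), and 0 rose and 1 fell in HaCaT (15.5% and 15.9%). Their line difference was called negative for 6 and positive for 0 (all genes 6.46% and 7.07%). The 16 RNAs without a poly(A) tail had only 2 tested members, and RN7SL2, high in the letter C libraries, fell in TIGK by 24 h (27.3 ± 43.1 to 1.84 ± 0.0736 CPM, adjusted p = 0.028), a call lost without TIGK 0 h C (0.87) or any of the TIGK 24 h libraries (0.071 to 0.083). How much of each histone transcript carried a poly(A) tail was not measured, and whether the libraries were selected for one is not given in the sources used here.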

How the data were processed

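Per the labels, RNA was extracted with Trizol, cleaned on a column kit and made into libraries by a sequencing company, and the submitters' processing notes name the genome build hg38 with the tools featureCounts 1.5.0-p3, HISAT2 2.0.5 and StringTie 1.3.3b. The annotation release, the strand setting, the handling of reads with several positions and any poly(A) selection are not given in the sources used here. The authors deposited read counts per gene (whole numbers, not normalized) and FPKM per gene, per the file headers; FPKM is used here only to compare levels between genes. The authors' own comparison tables were not used here.

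From the counts, genes were tested with edgeR 4.0.16 (R 4.3.3): filterByExpr left 17409 genes, TMM scaled the libraries, and 1 quasi-likelihood fit took in all 18 libraries with a mean for each of the 6 groups (12 residual degrees of freedom). CPM use the TMM-scaled library size. Fold changes carry the default prior count of edgeR. Each SE approximates the error as the absolute log2 fold change over the square root of F. Genes were called at a two-sided Benjamini-Hochberg adjusted p under 0.05 over all genes tested, and every adjusted p is this edgeR value unless DESeq2 (1.42.0) or another setting is named. The fit was tested on simulated data. DESeq2, size factors by median of ratios, no low-count filter, only the groups compared, a replicate block by letter, and leaving out libraries were the alternatives.

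Libraries are named by the letter of their column; the labels number replicates and do not tie numbers to letters. Nothing says that the 3 libraries of a group were separate cultures, so p-values measure the spread between libraries, which may be technical. The histone genes and the companion gene lists were chosen with earlier results of these data known. The rule for naming genes took every tested replacement gene, up to 4 called replication-dependent genes each way per comparison by fold, the 2 genes of highest FPKM per class, and up to 4 members per companion list by adjusted p. HIST1H2BH and HIST1H2AI met it in a between-line comparison. Outside it HIST1H2BC, HIST1H2AG, HIST1H2AH and HIST2H2AC were named as partners in head-to-head pairs, HIST2H4B as a near-identical copy, and NPAT as the only riser of its list in HaCaT; these were chosen after their values were seen. Copies were counted as the share of a gene's 50-base stretches found in other GENCODE 29 genes.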

Additional observations from a re-analysis of the deposited data

Results flagged for a closer look

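For 14 of the 39 tested histone genes the change from 0 h to 24 h differed between HaCaT and TIGK by a test of the difference itself (the interaction in the edgeR fit, false discovery rate under 0.05). These were 11 of 29 replication-dependent and 3 of 10 replacement genes, where 7.07% of all genes were called positive and 6.46% negative. The log2 difference, HaCaT minus TIGK, was -6.50 for HIST2H4A, -2.09 for HIST1H2BJ, -2.01 for HIST1H2AC, -1.98 for HIST1H2BG and -1.66 for HIST1H2BH. It was -1.61 for HIST1H4I, -1.37 for HIST1H2BD, -1.27 for HIST1H3E, -1.16 for HIST1H2BK, -1.12 for HIST1H1C and -1.02 for HIST2H2BE. Among replacement genes it was -0.50 for H1F0, -0.30 for H3F3B and 0.56 for H2AFY2. H1F0 rose in both lines and rose more in TIGK, HIST1H2BK fell in HaCaT with no change that passed in TIGK, HIST1H2BH lies near the threshold (adjusted p = 0.049), and HIST2H4A rests on a near-identical pair whose libraries scatter within groups.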

How the results depend on the processing

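The alternatives were run for 364 gene results, those of the 39 tested histone genes in 9 comparisons and 13 results of companion genes, and no direction that was called under either fit reversed in them. With no filter on low counts 9 of 64 replication-dependent genes were called in HaCaT from 0 h to 24 h, 6 up and 3 down. With the filter 4 of 29 were called. The counts rest on different sets of genes, so they do not show a larger response without the filter. The share of all genes called without the filter is not given here. The count of replacement genes with a line difference at 24 h was 3, ran from 2 to 6 when single libraries were left out, and was 6, 1 positive and 5 negative, without TIGK 24 h A. All other counts of called histone genes stayed within 1.5 times the reported count under every alternative run. Leaving out single libraries gave 13 to 15 replication-dependent genes risen in TIGK by 24 h, 16 to 19 different between lines at 0 h, 14 to 15 at 6 h and 10 to 12 with a line difference at 24 h. With the replicate block by letter within line, 355 of these kept their side of the threshold, 5 gained a call and 4 lost it: between lines HIST1H2BK at 0 h (adjusted p = 0.052), HIST2H4A at 24 h (0.086) and HIST1H2BH at 24 h (0.066), and HIST1H2BH in its line difference (0.062). Same-letter libraries of a line correlated in their deviations at -0.02 to 0.39, above 0.1 in 2 of 18 pairs, and the letters were not taken as pairs. The highest values were those of TIGK 0 h with TIGK 6 h, at 0.105, 0.094 and 0.388 for A, B and C. A pairing there was not tested apart from the block by letter, and libraries of different letters were not correlated. Without TIGK 0 h C and 6 h C together, 351 kept their side, 3 gained a call and 10 lost it: H3F3B in its TIGK change at 24 h and its line difference, HIST1H2AC (0.14) and HIST1H3H (0.082) between lines at 6 h, HIST1H2BK between lines at 0 h (0.2), HIST1H4K in TIGK at 24 h (0.069), HIST1H2AI (0.071) and HIST1H3G (0.087) between lines at 0 h, HIST1H3G at 6 h (0.079) and RN7SL2 in TIGK at 24 h (0.67). Most replication-dependent genes lie under 3 CPM, and the number of reads limits what can be seen in them.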
